A study of Mus musculus with 8 samples.

Results

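The RNA levels of 50 genes of DNA repair and of the DNA damage checkpoint were examined in 4T1 cells, a mouse line of triple-negative breast cancer, after exposure to a single-domain antibody (sdAb) against the stress protein NUPR1. The 50 genes were taken by symbol from both deposited gene tables, which together list 28712 genes, and all 50 were found and passed the filter on low counts. They fall into 7 groups: 16 genes of homologous recombination, 9 of the Fanconi pathway, 3 of mismatch repair, 5 of base excision repair, 5 of end joining, 3 of nucleotide excision repair, and 9 of the checkpoint and damage signalling. All cells were wild-type 4T1 cells kept at 1% O2, and purified sdAb was added at 0.5 μg/ml. The sdAb#07.81 (24 h) and sdAb#07.81 (48 h) groups received the anti-NUPR1 sdAb for 24 h or 48 h, and the sdAb-Con (48 h) group received the control sdAb for 48 h. Each group had 2 libraries. A further group, Con, was not analysed here. The sdAb proteins were made in HEK293F cells and carry a Tat peptide for entry into cells and a degron, cOdc1, that directs the bound protein to degradation. All results come from 1 cell line at 1 dose, and nothing in the sources says that the 2 libraries of a group came from separate cultures, so the p-values measure only the spread between these libraries, which may be technical.

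DNA repair is divided by the kind of lesion. Homologous recombination copies the sister chromatid to mend a double-strand break and works in S and G2 phase, whereas end joining rejoins the broken ends directly. The Fanconi pathway opens crosslinks between the strands, mismatch repair removes copying errors, base excision repair replaces small damaged bases, and nucleotide excision repair cuts out bulky lesions such as those left by ultraviolet light. The kinases ATM and ATR sense breaks and stalled forks and act through CHK2 and CHK1 to hold the cell cycle. Many genes of these pathways are transcribed with the cell cycle, under E2F factors.

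The tables give no value per library, only a mean over the 4 libraries compared. The whole reads of each library were recovered from the digits of these means for 28674 of 28712 genes, among them all 50 genes described here. The recovered totals were 14556534 to 17423059 reads a library. Values are normalized read counts (reads divided by a size factor), and the 2 libraries of a group are called a and b. Markers of epithelial tumor cells were high in all 6 libraries, with summed normalized counts of 46430 to 57770 over 8 genes. Of 8 immune markers, 6 were listed, and all but Cd68 stayed at a normalized count of at most 6 in each library. Cd68, a macrophage marker, had 497 and 647 in sdAb#07.81 (48 h), 1034 and 642 in sdAb-Con (48 h), and 268 and 235 in sdAb#07.81 (24 h). By limma it was higher at 48 h than at 24 h of sdAb#07.81 (log2 fold change 1.17 ± 0.17, adjusted p = 4.97e-05). It was also lower with sdAb#07.81 than with sdAb-Con at 48 h by limma (-0.52 ± 0.16, adjusted p = 0.0262), although the libraries of these groups overlapped. The part of Cd68 in the levels of the 50 genes was not tested. Of 5 fibroblast markers, Col1a1, Col3a1, Dcn and Lum were at 195, 145, 47.4 and 34.7 in library a of sdAb#07.81 (24 h) and at 38.0, 0, 2.85 and 0 in library b of that group, and Pdgfra was at 950 and 1238, while the summed count of the 50 genes was alike in both. At 48 h against 24 h of sdAb#07.81, Col3a1 and Lum passed as higher (adjusted p by limma = 0.0201 and 0.0471) and Pdgfra as lower (log2 fold change -0.77 ± 0.14, adjusted p by limma = 4.69e-04), and none of the 5 passed between the sdAbs. Nupr1 RNA, which does not check an agent that acts on the protein, had normalized counts of 2898 in both sdAb#07.81 (48 h) libraries, 3550 and 2977 in sdAb-Con (48 h), and 1545 and 2121 in sdAb#07.81 (24 h).

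The 50 genes differed widely in level. Per kilobase of the longest annotated transcript, the mean normalized count over the 6 libraries ran from 30.7 for Fancc to 812 for Msh6. After Msh6, which recognises mismatches, the highest levels per kilobase were those of the nick sensor Parp1 (675), the nuclease subunit Ercc1 (642) and the Ku subunits Xrcc6 (558) and Xrcc5 (519). The lowest after Fancc were Polq (40.2), the polymerase of microhomology-mediated end joining, and Fancf (45.4). The summed normalized count of the 50 genes was 37980 and 37210 in sdAb#07.81 (48 h), 34200 and 35240 in sdAb-Con (48 h), and 50610 and 50930 in sdAb#07.81 (24 h). Both 24 h libraries lay above all 4 libraries taken at 48 h. For 15 of the 50 genes a gene on the opposite strand with at least 10% of their mean count overlaps them, among these Ercc1 (Cd3eap), Xpa (Ncbp1), Xrcc6 (Desi1), Fancf (Gas2), Fanci (Polg), Msh6 (Fbxo11), Apex1 (Pip4p1) and Trp53bp1 (Tubgcp4), and the counting is not stated to use strand, so the reads of such neighbours could not be told apart.

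**Figure D1:**
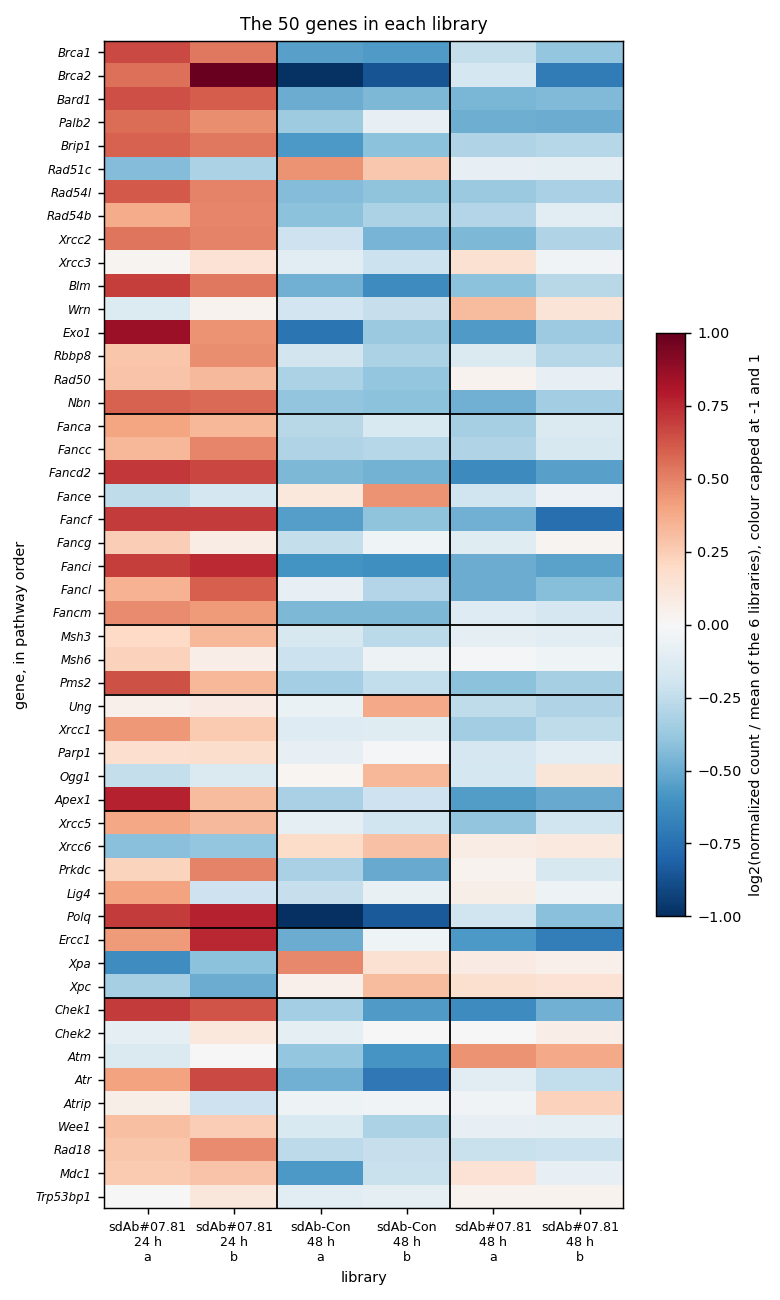
Each row is one of the 50 genes in pathway order (black lines part the pathways) and each column a library, and colour gives the log2 ratio of the normalized read count to the gene's mean over the 6 libraries. Most rows are red in the sdAb#07.81 (24 h) libraries and blue in both 48 h groups, while Xrcc6, Xpa and Xpc run the other way, Rad51c and Fance are red in sdAb-Con (48 h) and blue in the other groups, and Atm is highest in sdAb#07.81 (48 h).

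The first comparison asked how the anti-NUPR1 sdAb differed from the control sdAb at the same time, 48 h. Most of the 50 genes did not pass the test. By limma voom with Benjamini-Hochberg adjustment over all 13847 genes tested, 8 of the 50 had an adjusted p under 0.05, where 15.4% of all genes tested did. Of these, 7 were higher with sdAb#07.81 (9.13% of all genes tested were) and 1 was lower (6.26% of all genes tested were). Over the 50 genes 29 values lay above 0 and 21 below, at a median of 0.07 on the log2 scale, and the median over all genes tested was -0.02. The 7 higher genes were Atm, Polq, Brca2, Wrn, Mdc1, Atr and Rad50, and the lower gene was Rad51c.

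Atm, the kinase that is activated by double-strand breaks, showed the largest difference. Its normalized counts were 2055 and 1959 in sdAb#07.81 (48 h) and 1153 and 1001 in sdAb-Con (48 h), a 1.87-fold difference. The log2 fold change was 0.91 ± 0.12 (SE, n = 2 per group; adjusted p by limma = 2.64e-06). Both libraries with sdAb#07.81 lay far above both with sdAb-Con, and Atm passed in each of the 4 fits that left out 1 library. Atr, the kinase of stalled forks, had 984 and 890 against 758 and 644 (log2 fold change 0.43 ± 0.13, adjusted p by limma = 0.0195). Mdc1, a scaffold that binds phosphorylated histone H2AX at breaks, had 2825 and 2411 against 1712 and 2185, with a log2 fold change of 0.44 ± 0.12 (adjusted p by limma = 0.0133). The groups did not overlap for either gene, but the gap was narrow for Mdc1. Chek1, Chek2, Atrip, Wee1, Rad18 and Trp53bp1 did not pass, with log2 fold changes between -0.10 and 0.15. Chek1, the effector kinase below ATR, had 1050 and 1166 against 1282 and 1098, so its groups overlapped. Wee1, which restrains CDK1, had 1029 and 1020 against 979 and 876 (log2 fold change 0.15 ± 0.12, adjusted p by limma = 0.419). Trp53bp1, whose product 53BP1 favours end joining over resection, had 1593 and 1594 against 1433 and 1461 (0.15 ± 0.11 on the log2 scale, adjusted p by limma = 0.403).

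In homologous recombination, 3 of 16 genes were higher, 1 was lower and 12 did not pass. Brca2, the tumour suppressor that acts after end resection, had normalized counts of 863 and 603 in sdAb#07.81 (48 h) and 492 and 537 in sdAb-Con (48 h). The log2 fold change was 0.50 ± 0.14 (adjusted p by limma = 0.0185), and the 2 libraries with sdAb#07.81 differed from each other by more than library b differed from the controls. Wrn, a RecQ helicase, had 1510 and 1325 against 1059 and 1032 (log2 fold change 0.44 ± 0.12, adjusted p by limma = 0.00983). Rad50, the structural subunit of the MRN complex that holds broken ends, had 2230 and 2062 against 1748 and 1667 (0.34 ± 0.11 on the log2 scale, adjusted p by limma = 0.0365). Rad51c, which also acts in recombination, was the gene that was lower, with 304 and 302 against 438 and 388 and a log2 fold change of -0.44 ± 0.15 (adjusted p by limma = 0.0367). Its call was lost in each of the 4 fits that left out 1 library. Brca1, which acts in resection and with PALB2, had 1033 and 931 against 834 and 821, and its log2 fold change of 0.25 ± 0.12 did not pass (adjusted p by limma = 0.156).

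Of the 5 end-joining genes, Polq was higher and 4 did not pass. Polq had normalized counts of 303 and 260 against 170 and 194, a 1.55-fold difference (log2 fold change 0.64 ± 0.17, adjusted p by limma = 0.01). Prkdc, the catalytic subunit of DNA-PK, had 889 and 774 against 692 and 611, and its log2 fold change of 0.36 ± 0.13 fell short of the threshold (adjusted p by limma = 0.0528). None of the 9 Fanconi, 3 mismatch repair, 5 base excision repair and 3 nucleotide excision repair genes had an adjusted p under 0.05 by limma. Fancd2, the pathway's ubiquitinated effector, had 341 and 365 against 388 and 382 (log2 fold change -0.12 ± 0.14). Msh6 had 3412 and 3345 against 2981 and 3326 (0.11 ± 0.11), and Parp1 had 2332 and 2413 against 2463 and 2587 (-0.08 ± 0.11). All 5 base excision repair genes and all 3 nucleotide excision repair genes had a log2 fold change below 0, from -0.42 for the uracil glycosylase Ung to -0.03 for Xpc, and none of these 8 passed. With the dependence on length, GC and mean taken out, Xrcc1, Ogg1, Apex1 and Xpa turned to values between 0.003 and 0.066.

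The count of 8 rested on single libraries. Without library a of sdAb#07.81 (48 h), 1 gene passed, Atm. Without library b of sdAb-Con (48 h), 4 genes passed, all higher. Leaving out library a of sdAb-Con (48 h) left 6 genes, Wrn, Atm and Atr higher and Fance, Ung and Ercc1 lower. Leaving out library b of sdAb#07.81 (48 h) left 8, all higher, with Prkdc in and Rad51c out.

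The genes that were higher with sdAb#07.81 at 48 h had long transcripts, though not every gene with a long transcript was higher. Over 13698 tested genes with an annotated length, longer transcripts went with higher log2 values (Spearman's rho = 0.45 across genes, which share libraries and are not independent). That value uses the longest transcript of each gene, and with the median length of its transcripts rho was 0.325. Over the 50 genes rho was 0.70 with the longest transcript. Of 13 among the 50 with a longest transcript above 6000 nt, 6 were higher and 0 lower, and the seventh higher gene, Rad50, has a longest transcript of 5153 nt. Among all 1775 tested genes above that length, 37.1% were higher and 0.451% lower, against 5.0% higher among shorter genes. In a fit with the smooth dependence on length, GC and mean taken out, 2 of the 50 passed: Atm with a log2 value of 0.49 (adjusted p by limma = 0.0112) and Rad51c with -0.52 (adjusted p by limma = 0.0348). Brca2 then stood at 0.04 and Atr at 0.05, so that little of their difference was left, while Polq stood at 0.31 (adjusted p by limma = 0.352).

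**Figure D2:**
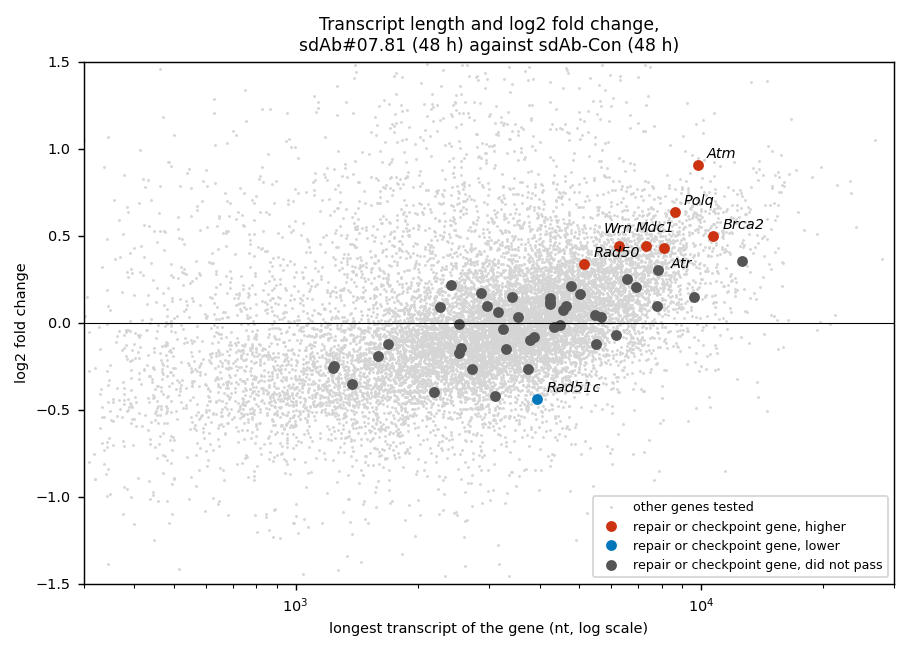
The x axis is the longest transcript of each gene in nt on a log scale, and the y axis the log2 fold change of sdAb#07.81 (48 h) against sdAb-Con (48 h), drawn from -1.5 to 1.5. The 7 higher repair and checkpoint genes (red) sit at the right end of a cloud of all tested genes (grey) that climbs with length, and Rad51c (blue) sits at -0.44.

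The second comparison set 48 h of sdAb#07.81 against 24 h of the same sdAb, with no control sdAb at 24 h. It shares the sdAb#07.81 (48 h) libraries with the first comparison. Here most of the 50 genes were lower at 48 h. Of 13942 genes tested, 41.4% passed, 20.0% higher and 21.3% lower at 48 h. Among the 50, 36 passed, 32 lower and 4 higher, and 14 did not pass. The median log2 fold change was -0.60, while that of all genes tested was -0.01. The range ran from -1.31 for Fancf to 0.58 for Xpa. Of the 36, 28 passed in each of the 4 fits that left out 1 library, and Rad50 and Parp1 passed in none of those fits.

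Proliferation markers moved beside these genes. Of 20 such markers, 19 were lower and 0 higher in sdAb#07.81 (48 h) than in sdAb#07.81 (24 h), with a median log2 fold change of -1.08. The same count, 19 of 20 lower, was found for sdAb-Con (48 h) against sdAb#07.81 (24 h). Their summed normalized count was 108500 and 113200 at 24 h, 53830 and 54690 in sdAb#07.81 (48 h) and 51950 and 50240 in sdAb-Con (48 h). Between the sdAbs at 48 h, Mki67 was higher, Mcm5, Mcm7 and Rrm2 were lower, and 16 did not pass. With the dependence on length, GC and mean taken out, Mki67 passed (adjusted p by limma = 0.0128) and Mcm5, Mcm7 and Rrm2 did not (adjusted p by limma = 0.069, 0.205 and 0.0699), and these 3 each passed in 2 of the 4 fits that left out 1 library. The part of proliferation in the levels of the repair genes was not tested. In bulk RNA, fewer cells in S and G2 phase and less RNA per cell cannot be told apart.

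In homologous recombination, 13 of 16 genes were lower and 0 higher, with a median log2 fold change of -0.90. Brca2 fell most, from 1431 and 1934 at 24 h to 863 and 603 at 48 h, a 2.30-fold difference (log2 fold change -1.20 ± 0.17, adjusted p by limma = 3.1e-05). Exo1, a nuclease of end resection, had 880 and 663 at 24 h and 329 and 379 at 48 h (-1.11 ± 0.17 on the log2 scale, adjusted p by limma = 5.91e-05). Brca1 had 1925 and 1755 at 24 h and 1033 and 931 at 48 h (log2 fold change -0.91 ± 0.12, adjusted p by limma = 2.32e-05). In all 3 genes both 24 h libraries lay above both 48 h libraries, as they also did in Msh6 and Fancg, which did not pass. Bard1, the partner of BRCA1, differed 2.11-fold, Palb2, the bridge to BRCA2, 2.00-fold, and Blm, a RecQ helicase, 1.94-fold, all lower at 48 h. Rad51c, Xrcc3 and Wrn did not pass, with log2 fold changes of 0.29, -0.03 and 0.28.

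The Fanconi genes followed, with 7 of 9 lower and a median log2 fold change of -0.64. Fancf, an adaptor within the core complex, had the largest change of the 50 genes, from 125 in each 24 h library to 54.9 and 45.6 at 48 h (log2 fold change -1.31 ± 0.26, adjusted p by limma = 7.12e-04). It also had the lowest mean count of the 50 genes and the widest SE. Fancd2 fell from 867 and 841 to 341 and 365, a 2.42-fold difference (-1.28 ± 0.14 on the log2 scale, adjusted p by limma = 3e-06). Fanci, the partner of FANCD2 in the clamp, fell from 454 and 472 to 200 and 195, so the RNAs of both clamp subunits were lower at 48 h. Fance and Fancg did not pass, with log2 fold changes of 0.09 and -0.21. In mismatch repair, Pms2, an endonuclease of the pathway, fell from 704 and 570 to 340 and 359 (-0.86 ± 0.16, adjusted p by limma = 3.57e-04). The mismatch sensors Msh6 and Msh3 did not pass. Msh6 had 4041 and 3611 at 24 h and 3412 and 3345 at 48 h (log2 fold change -0.18 ± 0.11, adjusted p by limma = 0.214).

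Base excision repair had 3 lower genes of 5. Apex1, the endonuclease that cuts at abasic sites, fell from 943 and 690 to 376 and 389, a 2.11-fold difference (log2 fold change -1.08 ± 0.17, adjusted p by limma = 7.41e-05). Xrcc1, the scaffold of single-strand break repair, fell from 864 and 766 to 502 and 536 (-0.65 ± 0.14, adjusted p by limma = 0.0013). Parp1 changed least of these, from 2937 and 2947 to 2332 and 2413 (-0.31 ± 0.11, adjusted p by limma = 0.0303). Of the 36 genes that passed between 24 h and 48 h, Parp1, Rad50 and Prkdc did not pass with the dependence on length, GC and mean taken out (adjusted p by limma = 0.0808, 0.0871 and 0.177), while Wrn then passed as higher (0.39, adjusted p by limma = 0.0192).

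End joining and nucleotide excision repair were mixed. Polq fell from 565 and 591 to 303 and 260 (log2 fold change -1.04 ± 0.15, adjusted p by limma = 5.5e-05). The Ku subunits went opposite ways: Xrcc5 (Ku80) fell from 1736 and 1659 to 1009 and 1155 (-0.65 ± 0.12, adjusted p by limma = 4.47e-04), and Xrcc6 (Ku70) rose from 1380 and 1407 to 1937 and 1963 (0.48 ± 0.11, adjusted p by limma = 0.00265). Prkdc had 1013 and 1219 at 24 h and 889 and 774 at 48 h (-0.42 ± 0.14, adjusted p by limma = 0.0196), and passed in 2 of the 4 fits that left out 1 library. Lig4, the ligase of end joining, did not pass (-0.09 ± 0.20).

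Ercc1, which cuts on the 5′ side of a lesion with its partner XPF, fell from 1186 and 1489 to 594 and 546, a 2.33-fold difference (log2 fold change -1.22 ± 0.14, adjusted p by limma = 4.99e-06). The other 2 genes of nucleotide excision repair among the 50 rose. Xpa, which verifies damage, went from 208 and 241 to 339 and 331 (0.58 ± 0.17, adjusted p by limma = 0.0103), and Xpc, which finds distorted helix, from 608 and 544 to 856 and 846 (0.56 ± 0.13, adjusted p by limma = 0.00289). Xpa passed in 2 of the 4 fits that left out 1 library, and Xpc in all 4.

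In the checkpoint group, 4 of 9 genes were lower, 1 was higher and 4 did not pass. Chek1 fell from 2636 and 2505 to 1050 and 1166, a 2.32-fold difference with the smallest adjusted p of the 50 genes (log2 fold change -1.22 ± 0.12, adjusted p by limma = 7.6e-07). Atr fell from 1400 and 1672 to 984 and 890 (-0.71 ± 0.13, adjusted p by limma = 3.64e-04). Wee1 had 1340 and 1294 at 24 h and 1029 and 1020 at 48 h (-0.36 ± 0.12, adjusted p by limma = 0.0222), and passed in 1 of the 4 fits that left out 1 library. Rad18, a ubiquitin ligase of PCNA, was the other lower gene. Atm was the gene that rose, from 1367 and 1515 to 2055 and 1959 (log2 fold change 0.48 ± 0.12, adjusted p by limma = 0.00332). ATM's effector Chek2 (0.03 ± 0.15), Atrip (0.17 ± 0.16), Mdc1 (-0.24 ± 0.11) and Trp53bp1 (-0.02 ± 0.12) did not pass.

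**Figure D3:**
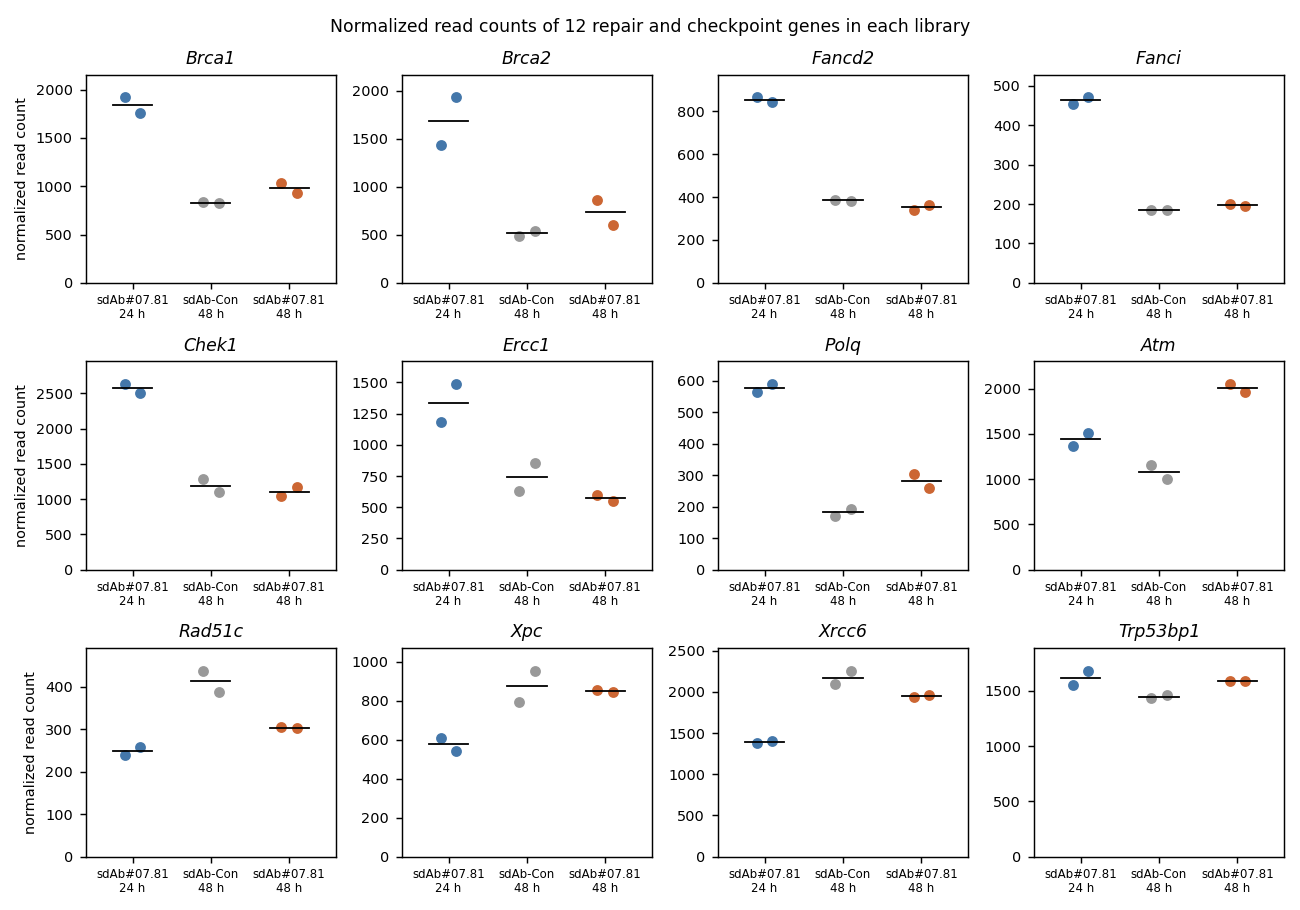
Each panel gives the normalized read count of 1 gene (y axis, from 0) in each of the 6 libraries by group (points; the line is the mean of 2). Brca1, Brca2, Fancd2, Fanci, Chek1, Ercc1 and Polq are highest at 24 h, Atm is highest in sdAb#07.81 (48 h), Rad51c is highest in sdAb-Con (48 h), Xpc and Xrcc6 are lowest at 24 h, and Trp53bp1 differs little.

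The promoters of the genes that changed most between 24 h and 48 h are shown here. RefSeq windows (GRCm38.p6, from 250 bases before to 50 after the gene's start) were matched by symbol for 39 of the 50 genes, some of which have more than 1 start, giving 43 windows. There was none for Rad54b, Xrcc2, Wrn, Exo1, Rbbp8, Rad50, Nbn, Fancd2, Prkdc, Xpc and Wee1. Below are the first 280 bases of the windows of the 4 matched genes with the largest fall at 48 h and the 2 with the largest rise, in the direction of the gene: Fancf at chr7:51862238-51862517 (minus strand), Fanci at chr7:79392088-79392367 (plus), Ercc1 at chr7:19344821-19345100 (plus), Chek1 at chr9:36726629-36726908 (minus), Xpa at chr4:46196282-46196561 (minus) and Xrcc6 at chr15:82016119-82016398 (plus). Capitals mark matches, on either strand, to 3 E2F-type words, of which the first is TTCCCGC, the next is TTGGCGC and the last is TTGGCGG. They also mark the CHR word, which reads TTTGAA, and the CCAAT box, named for its letters. In Fancf an E2F-type match and a CCAAT match overlap.
Fancf: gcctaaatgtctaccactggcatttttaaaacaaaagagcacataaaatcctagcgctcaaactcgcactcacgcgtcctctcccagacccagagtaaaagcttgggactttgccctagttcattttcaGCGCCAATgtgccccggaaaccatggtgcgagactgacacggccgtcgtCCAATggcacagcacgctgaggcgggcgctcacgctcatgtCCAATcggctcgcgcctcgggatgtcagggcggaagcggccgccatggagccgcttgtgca
Fanci: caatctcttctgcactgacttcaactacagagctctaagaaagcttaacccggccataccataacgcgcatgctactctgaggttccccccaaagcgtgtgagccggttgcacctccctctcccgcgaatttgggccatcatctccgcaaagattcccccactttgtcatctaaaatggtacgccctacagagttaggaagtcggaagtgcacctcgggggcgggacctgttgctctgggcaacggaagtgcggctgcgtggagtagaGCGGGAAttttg
Ercc1: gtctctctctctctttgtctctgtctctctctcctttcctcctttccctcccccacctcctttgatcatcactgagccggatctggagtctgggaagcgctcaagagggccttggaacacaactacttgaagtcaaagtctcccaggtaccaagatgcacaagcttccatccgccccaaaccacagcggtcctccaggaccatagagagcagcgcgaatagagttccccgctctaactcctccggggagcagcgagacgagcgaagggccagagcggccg
Chek1: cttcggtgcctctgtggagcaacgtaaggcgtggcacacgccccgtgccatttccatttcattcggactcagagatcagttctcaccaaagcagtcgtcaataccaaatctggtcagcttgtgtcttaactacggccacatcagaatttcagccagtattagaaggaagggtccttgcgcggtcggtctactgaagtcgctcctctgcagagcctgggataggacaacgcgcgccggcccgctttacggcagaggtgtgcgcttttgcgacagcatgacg
Xpa: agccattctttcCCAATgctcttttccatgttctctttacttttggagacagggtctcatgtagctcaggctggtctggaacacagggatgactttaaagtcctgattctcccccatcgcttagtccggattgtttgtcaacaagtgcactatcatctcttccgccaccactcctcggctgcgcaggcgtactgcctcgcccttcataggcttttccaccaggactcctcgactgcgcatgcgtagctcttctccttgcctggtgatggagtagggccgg
Xrcc6: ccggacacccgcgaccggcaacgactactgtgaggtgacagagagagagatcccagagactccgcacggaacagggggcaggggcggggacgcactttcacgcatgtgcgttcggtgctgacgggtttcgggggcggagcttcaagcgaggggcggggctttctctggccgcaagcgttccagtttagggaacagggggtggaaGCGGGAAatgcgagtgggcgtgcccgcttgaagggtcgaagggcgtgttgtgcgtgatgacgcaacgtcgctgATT
Fancf had 1 E2F-type match, its first base 121 bases before the start, and 3 CCAAT matches. Fanci had 1 E2F-type match, at base 19 after the start, and Chek1 had 2 overlapping ones, at bases 41 and 44 after the start and so beyond the bases printed. Ercc1 had none of the 3 kinds. Of the genes that rose, Xrcc6 had 1 E2F-type match, 46 bases before the start, and a CCAAT match that runs past the printed end, and Xpa had 1 CCAAT match. An E2F-type word was present in 11 of 25 windows of the genes that were lower at 48 h (44.0%) and in 8 of 18 windows of the other matched genes among the 50 (44.4%). It was present in 9.07% of all 32851 windows of this length and in 15.8% of the 12658 windows of genes tested in this comparison. A CCAAT word was in 56.0% and 55.6% of the same 2 sets and 37.4% of all windows, and a CHR word in 2 of 25, 0 of 18 and 17.9% of all windows (12.2% of those of genes tested). The E2F-type and CCAAT words were about as frequent in the genes that were lower as in the rest of the 50, and a match does not show that a factor binds.

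The remaining pair, sdAb-Con (48 h) against sdAb#07.81 (24 h), was compared too, a choice made after the values were seen. Its groups differ in agent and time at once, and it shares libraries with each of the others, so its values are given beside theirs only to place the 24 h libraries. Of 13913 genes tested, 50.3% passed, 25.1% higher and 25.2% lower in sdAb-Con (48 h). Of the 50 genes, 35 were lower, 5 higher and 10 did not pass, with a median log2 fold change of -0.65. Brca2 was 3.21-fold lower, at 492 and 537 against 1431 and 1934 (log2 fold change -1.68 ± 0.15, adjusted p by limma = 7.01e-10). Polq was 3.16-fold lower (-1.66 ± 0.17, adjusted p by limma = 9.59e-09), and Fancd2 (-1.14 ± 0.14), Chek1 (-1.10 ± 0.12) and Brca1 (-1.14 ± 0.12) were each more than 2-fold lower. Over all genes, longer transcripts went with lower values here (Spearman's rho = -0.32 with the longest transcript, -0.21 with the median length). With the dependence on length, GC and mean taken out, Brca2 stood at -1.07 and Polq at -1.23. Fancd2, Chek1 and Brca1 then stood at -0.90, -0.96 and -0.80, and each of these genes still passed. All 3 mismatch repair genes were lower, but Msh3 and Msh6 (adjusted p by limma = 0.0185 and 0.0491) each passed in 1 of the 4 fits that left out 1 library, and neither passed with the dependence on length, GC and mean taken out (adjusted p by limma = 0.0661 and 0.179). The 5 higher genes were Xpa (0.85 ± 0.18), Rad51c (0.75 ± 0.17), Xrcc6 (0.65 ± 0.12), Xpc (0.61 ± 0.14) and Fance (0.50 ± 0.16). With the dependence on length, GC and mean taken out, Xpa stood at 0.415 and Fance at 0.298 and neither passed (adjusted p by limma = 0.0557 and 0.131), nor did the lower genes Rbbp8 and Prkdc (adjusted p by limma = 0.055 and 0.643). In that fit Trp53bp1 passed as higher and Xrcc3 as lower (log2 values 0.352 and -0.435, adjusted p by limma = 0.0168 and 0.0399). Atm was lower here (-0.41 ± 0.13, adjusted p by limma = 0.00809), but did not pass without library b of sdAb-Con (48 h) (adjusted p by limma = 0.178) and turned to 0.16 with the dependence on length, GC and mean taken out. In normalized counts, Atm stood lowest in sdAb-Con (48 h), between in sdAb#07.81 (24 h) and highest in sdAb#07.81 (48 h), and its 3 groups did not overlap. The lower levels of Brca1, Brca2, Fancd2, Chek1 and Polq at 48 h than in the 24 h libraries were measured with the control sdAb as well as with sdAb#07.81.

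**Figure D4:**
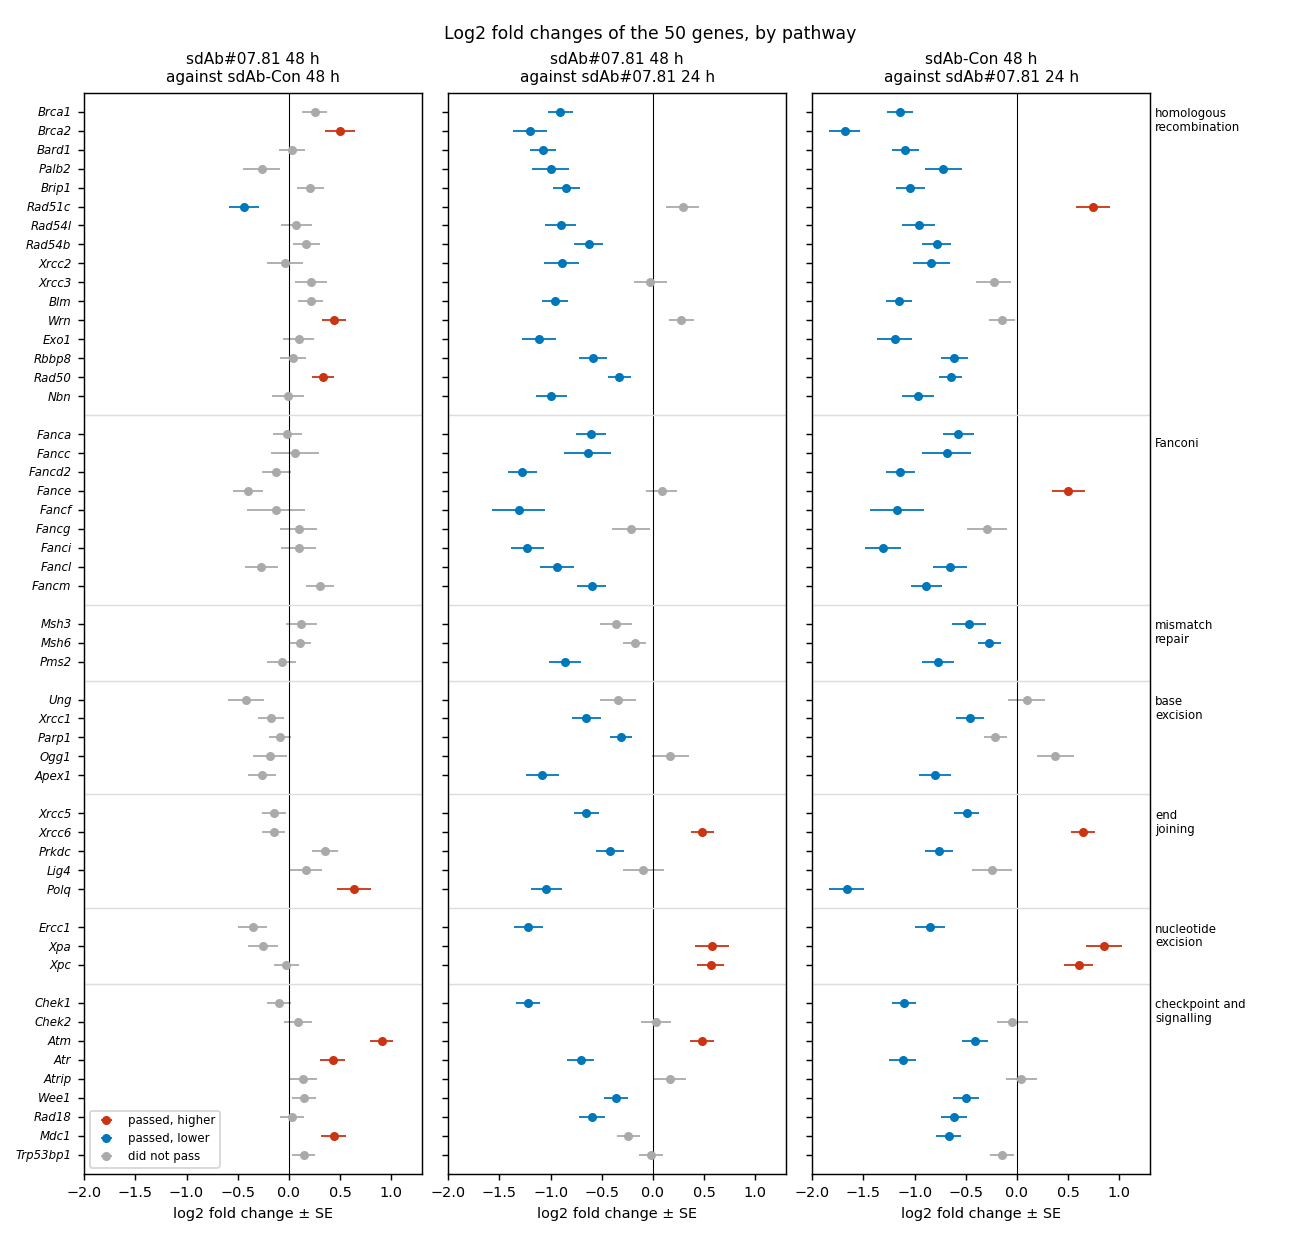
Points give the log2 fold change of each of the 50 genes and bars its SE (x axis), with genes in pathway order (y axis) and 1 panel for each comparison; red and blue points passed at an adjusted p under 0.05, grey ones did not. In the first panel most points lie near 0 and 8 are coloured, while in the other panels 32 and 35 points are blue.

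Other genes of the same pathways, 98 found in the tables and 97 tested, were read in the same way. Between the sdAbs at 48 h, 5 were higher and 4 lower, with a median log2 fold change of -0.04, where 9.13% and 6.26% of all genes tested were higher and lower. The higher genes with the largest changes were Rev3l, the catalytic subunit of polymerase zeta (0.93 ± 0.14), Shprh, a ubiquitin ligase of PCNA (0.76 ± 0.12), Uvssa, of transcription-coupled repair (0.52 ± 0.13), and Smc5, of the SMC5/6 complex (0.45 ± 0.12). With the dependence on length, GC and mean taken out, none of the 5 higher and 4 lower genes passed, with adjusted p by limma from 0.0508 for Rev3l to 0.868 for Rif1. All 4 lower genes belonged to base excision repair, of which 15 were tested, and the largest changes among them were those of the glycosylases Mpg (-0.63 ± 0.19) and Neil1 (-0.52 ± 0.17). Between 24 h and 48 h of sdAb#07.81, 40 were lower, 10 higher and 47 did not pass, with a median of -0.28, where 21.3% of all genes tested were lower and 20.0% higher. The other recombination genes had 13 lower of 22, led by the resolvase Gen1 (1173 and 1043 at 24 h, 321 and 271 at 48 h, -1.90 ± 0.15) and the nuclease Dna2 (-1.90 ± 0.26), and 1 higher, Rad52 (0.48 ± 0.15). The other checkpoint genes had 12 lower of 27, led by the histone H2ax (586 and 642 at 24 h, 189 and 204 at 48 h, -1.64 ± 0.16) and the fork protein Timeless (-1.36 ± 0.15), and 3 higher, Mad2l2 (0.705 ± 0.17), Hltf (0.43 ± 0.11) and Uimc1 (0.40 ± 0.13). In the Fanconi list 5 of 9 were lower, with Faap24 (-1.39 ± 0.25) and Fan1 (-0.83 ± 0.21) foremost. Base excision repair had 6 lower and 3 higher of 15, with the ligase Lig1 (-1.18 ± 0.12) and the flap nuclease Fen1 (-1.03 ± 0.26) the lower genes that changed most, and the glycosylase Nthl1 (0.995 ± 0.18), Polb (0.52 ± 0.14) and Aptx (0.42 ± 0.15) higher. In end joining 1 of 6 was higher, the Ku-binding factor Paxx (0.85 ± 0.25), and 1 lower, Polm (-0.50 ± 0.17). Nucleotide excision repair had 1 lower and 2 higher of 14, the higher genes being Uvssa (0.79 ± 0.17) and the nuclease Ercc5 (0.65 ± 0.13). Some of these calls between 24 h and 48 h did not hold in every fit that left out 1 library. Among them were those of Rad52, Fan1, Fen1, Polb, Aptx, Paxx and Polm.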

How the data were processed

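The authors sequenced paired ends on a NovaSeq 6000. The submitters' processing notes name cutadapt 1.9.1, HISAT2 2.0.1 and HTSeq 0.6.1 and a human genome build, GRCh38.p14, for these mouse reads, so the build of the tables was left unnamed here. The authors deposited 2 tables, each with the mean normalized signal per gene over 4 libraries (read counts divided by size factors), and their own fold changes, log2 fold changes with errors, test statistics and p-values, which were not used. Each mean is a sum of whole reads, each times a fixed value per library, so the reads of each library were recovered from 15 significant digits: 28674 of 28712 genes had 1 solution (in the self-test 99.44% were solved right), and the rest, all highly expressed, were left out (11.7% and 14.0% of the summed signal). The 2 libraries with identical reads in both tables, in 5471 of 5471 genes of at most 5 reads, are those of the shared group. Library letters follow the recovered total and are not the labels' replicate numbers.

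The fixed plan assumed counts per library. Recovered counts were tested with limma 3.58.1 (voom; R 4.3.3) within each pair of groups, after a filter on a mean of at least 10, two-sided, with Benjamini-Hochberg adjustment over all genes and a threshold of 0.05. Tested on simulated data, the fit recovered 83 of 100 genes changed 2-fold and 70 of 100 changed 1.5-fold between the sdAbs at 48 h, and called 10 of 13619 unchanged genes. With 24 h against 48 h it recovered 77 and 65 of 100 and called 0 of 13740. Alternatives were other scalings and filters, a limma trend test on log2 of the counts plus 1 or 4, 1 fit over 3 groups, a 1.5-fold minimum, removal of a trend on transcript length, GC and mean, and leaving out each library. Transcript lengths came from GENCODE M21. The genes named were all that passed between the sdAbs at 48 h, up to 2 per pathway and direction with the largest change between 24 h and 48 h, up to 2 per list of other genes, and 11 fixed genes; Fanci, Bard1, Palb2, Blm and other examples, and the motifs, were chosen after values were seen. The genes and lists were chosen with earlier results of these data known. Some genes of the lists of other genes are not reported here.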

Additional observations from a re-analysis of the deposited data

How the results depend on the processing

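Between the sdAbs at 48 h, the 8 of 50 genes that passed became 3 with no filter, 4 in 1 fit over 3 groups, 2 with a 1.5-fold minimum and 2 with the length, GC and mean trend removed, and 1 to 8 when each library was left out. The higher genes numbered 3, 4, 2 and 1 under those settings and 1 to 8 without a library. The lower gene, Rad51c, was lost with total-count and upper-quartile scaling, no filter, 1 fit over 3 groups and the 1.5-fold minimum (0 lower), and 2 were lower with a mean of at least 100 and 0 to 3 without a library. Over all genes the count of 2131 became 1090, 1389, 757 and 508 under no filter, 1 fit over 3 groups, the 1.5-fold minimum and the trend removal, and 455 to 2326 without a library. Between 24 h and 48 h of sdAb#07.81, 27 to 36 of the 50 genes passed in all alternatives; the 4 higher genes became 0 and the 5766 genes 3651 with the 1.5-fold minimum, and the latter ranged from 3690 to 5643 without a library. For sdAb-Con (48 h) against sdAb#07.81 (24 h), an added comparison, all genes numbered 4533 with the 1.5-fold minimum and 4560 to 6373 without a library, and the higher genes among the 50 numbered 3 to 5 without a library.

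With the trend removed, signs turned in many genes that had not passed and in some that had. The latter include Rif1 (-0.05 between the sdAbs) and, in the added comparison, Atm (0.16) and Ercc6 (0.02). Among the genes that had not passed, Prkdc and Trp53bp1 stood at -0.15 and -0.20 between the sdAbs. Trp53bp1 and Chek2 stood at 0.15 and -0.02 between 24 h and 48 h. In the added comparison Wrn and Trp53bp1 stood at 0.21 and 0.35, and Trp53bp1 then passed as higher (adjusted p by limma = 0.0168). Without a library Chek1 ranged from -0.205 to 0.013 between the sdAbs, and Trp53bp1 from -0.075 to 0.033 between 24 h and 48 h. The cause was not tested. Among the named genes, 162 recomputed values between the sdAbs and 260 between 24 h and 48 h kept their direction and their side of the threshold, and 40 and 23 were no longer past it. Fits that leave a group with 1 library assume that it varies like the others. No paired analysis was possible because the recovered libraries carry no replicate number. With 2 libraries a group, and 77 of 100 simulated 2-fold changes recovered between 24 h and 48 h, a gene that did not pass was not shown to be unchanged.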
